A study of Danio rerio with 12 samples.

Results

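Toll-like receptors are the transmembrane sensors through which cells detect pieces of microbes, and tlr18 is the family member with the large fall in zebrafish testis tissue given follicle-stimulating hormone (Fsh). The members described here are tlr18, chosen for that fall, and 8 further Toll-like receptor genes (tlr1, tlr2, tlr3, tlr5a, tlr5b, tlr9, tlr21 and tlr22) with the shared adaptor myd88, chosen by family. Of these 10 symbols, 8 had a gene ID among the 33737 IDs of the count table, and 6 passed the filter on low counts (tlr18, tlr2, tlr3, tlr5a, tlr5b and myd88). The genes tlr9 and tlr21 were counted but fell under the filter, and tlr1 and tlr22 were not analysed here. RNA was sequenced from 12 libraries of adult wild type zebrafish testis after 48 h of incubation, 6 with Trilostane and Fsh (Fsh libraries) and 6 with Trilostane alone (Trilostane libraries). Trilostane inhibits an enzyme of steroid hormone synthesis, and both groups received it, so the comparison asks what Fsh changed while steroid production was inhibited. The study calls the libraries biological replicates. The sources used here do not say whether libraries of equal number came from 1 fish, or give the Fsh dose.

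A Toll-like receptor binds its ligand outside the cell or inside an endosome and passes the signal through a cytoplasmic TIR domain. Most receptors recruit the adaptor Myd88, which assembles Irak kinases and the ubiquitin ligase Traf6. These activate the IKK kinases and free NF-kappa-B to enter the nucleus, where it switches on cytokine and chemokine genes together with genes that restrain the pathway. Tlr3 signals without Myd88, through another TIR adaptor, towards interferon genes. In the testis, resident macrophages are a main immune cell, and receptors of this family are also known from mammalian Sertoli and germ cells. Teleost fish carry receptors that mammals lack, among them tlr18, tlr21 and tlr22, and zebrafish carry a pair of tlr5 copies.

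Each library held between 4695095 and 11497588 counted reads. Values are CPM (a gene's reads scaled to a common library total) after trimmed-mean scaling, which corrects for library composition, and 3 reads, the limit that a count of 0 allows, correspond to 0.259 to 0.641 CPM depending on the library. Of 19317 genes tested, 315 (1.63%) passed an adjusted p of 0.05 in edgeR's quasi-likelihood test, 0.865% higher with Fsh and 0.766% lower, and the median log2 fold change was 0.00. An unadjusted p under 0.05 was found for 3359 genes (17.4%), the share against which such counts in gene lists are to be read, and DESeq2 called 4.72% and limma-voom 1.87% of the genes they tested. In 373 genes (1.93%) the 6 Fsh libraries did not overlap the 6 Trilostane libraries. Fsh library 5 stood apart in leukocyte genes: the mean of 6 pan-leukocyte genes was 5.28 log2 CPM there, against 3.36 to 3.96 in the other 5 Fsh libraries and 3.86 to 5.12 in the Trilostane libraries. It was also the highest Fsh library for the endothelial genes cdh5, TIE1 and FLI1. For the germ cell genes DDX4, DAZL, PIWIL1, PIWIL2, SYCP3 and DMC1 it was the lowest. Several results are therefore given with and without this library, a comparison that does not isolate leukocytes. For genes high or low in that library, leaving it out moves their Fsh mean by choice, so such values and p-values only describe.

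tlr18 (ENSDARG00000040249), a fish receptor of the same subfamily as Tlr1 and Tlr2, was low in every Fsh library. It had 3.10, 3.64, 4.26, 6.77, 3.49 and 2.51 CPM in Fsh libraries 1 to 6, against 8.12, 18.0, 31.7, 20.3, 33.6 and 8.85 CPM in Trilostane libraries 1 to 6. The groups did not overlap, the highest Fsh library (number 4) lying under the lowest Trilostane library (number 1). Its mean was 3.96 ± 1.49 CPM in Fsh libraries and 20.1 ± 10.9 CPM in Trilostane libraries (SD, n = 6 each). The log2 fold change was −2.35 ± 0.37 (SE), 5.11-fold lower with Fsh, with a 95% interval of −3.15 to −1.56. In reads, the gene had 213 over the Fsh libraries (25 to 54 a library) and 1000 over the Trilostane libraries (38 to 261 a library). Because tlr18 was picked for this fall, these values describe it and no p-value is given. In CPM the Trilostane libraries spread more widely than the Fsh libraries, around a mean that was itself higher. Among them, 3 and 5 were high, and 1 and 6 were low. In whole testis tissue, fewer cells of a type and less RNA per cell cannot be told apart.

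**Figure D1:**
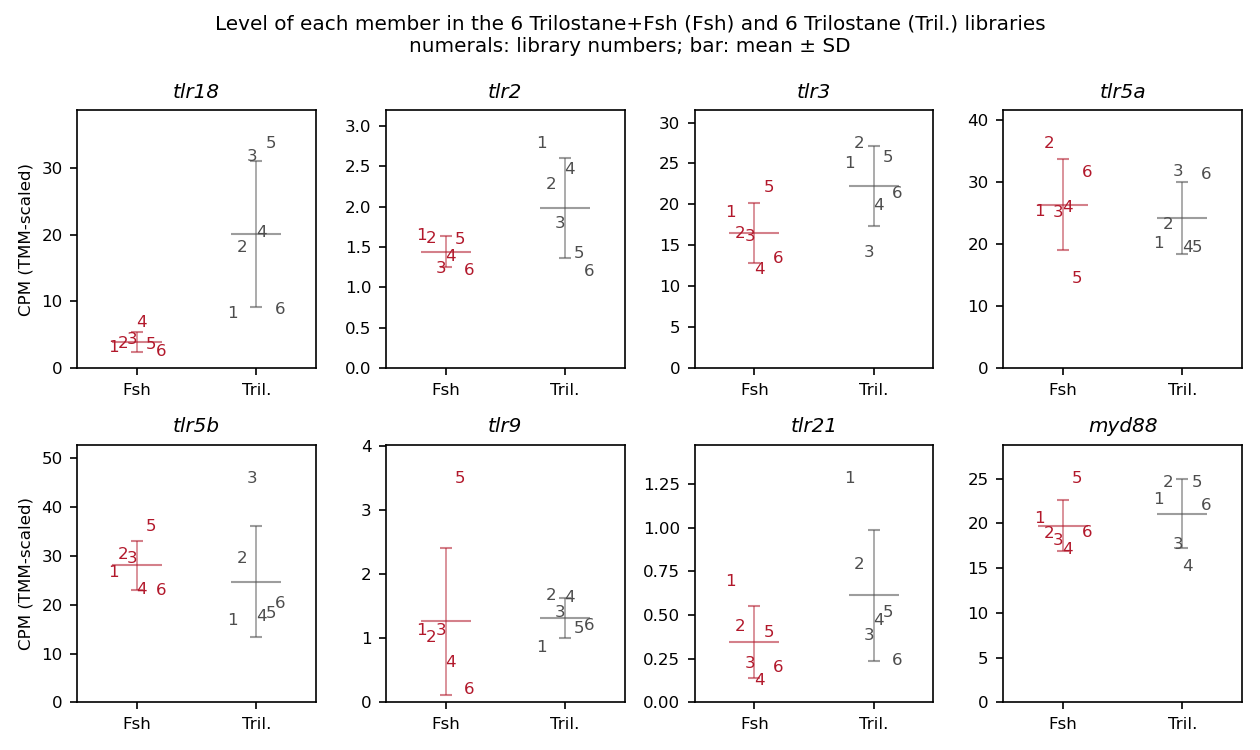
CPM of the 8 counted members, 1 panel a gene, with Trilostane+Fsh libraries left of Trilostane libraries; each numeral is a library's replicate number drawn at its value, and bars are the mean and SD of 6. Each panel has its own linear axis; tlr18 separates the groups (2.51 to 6.77 CPM with Fsh, 8.12 to 33.6 CPM without), and the other 7 panels overlap.

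The same fall can be read as the share of tlr18 in the reads of its own family, which its choice fixes in direction and which is no further result. Among the reads of the 7 counted member receptors, it took 5.18% ± 2.31 in Fsh libraries (3.50% to 9.69%) and 20.4% ± 9.08 in Trilostane libraries (10.5% to 33.6%; SD, n = 6 each). The receptors together had 557 to 897 reads in a Fsh library and 351 to 1175 reads in a Trilostane library. The closest libraries of the groups were Fsh library 4, at 9.69% (95% Clopper-Pearson interval 7.37% to 12.5%), and Trilostane library 6, at 10.5% (8.34% to 13.0%), whose intervals overlap. These intervals cover counting error only.

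The other receptor of the Tlr1 subfamily that was counted, tlr2 (listed as TLR2, ENSDARG00000037758), senses bacterial lipopeptides and was scarce. It had 1.21, 1.49 and 1.64 CPM (lowest, median and highest) in Fsh libraries and 1.20, 2.03 and 2.78 CPM in Trilostane libraries, or 11 to 19 and 10 to 26 reads. All 6 Fsh libraries lay below the Trilostane median, but the groups overlapped. The log2 fold change was −0.44 ± 0.24 (edgeR, adjusted p = 0.368), with an interval of −0.96 to 0.07. A fall as large as that of tlr18, −2.35, lies outside this interval.

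The endosomal receptor tlr3 (ENSDARG00000016065), which binds double-stranded RNA, had 12.0, 16.2 and 22.1 CPM (lowest, median and highest) in Fsh libraries, against 14.1, 23.1 and 27.4 CPM in Trilostane libraries. All 6 Fsh libraries lay below the Trilostane median, and the groups overlapped. Means were 16.5 ± 3.66 CPM with Fsh and 22.2 ± 4.90 CPM without (SD, n = 6 each). The log2 fold change of −0.43 ± 0.18 did not pass over all genes (edgeR, adjusted p = 0.242, unadjusted p = 0.0332; interval −0.82 to −0.04). Without Fsh library 5, its highest Fsh library, it was −0.53 ± 0.18 (adjusted p = 0.109).

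The flagellin receptors tlr5a and tlr5b, whose zebrafish proteins act as a pair, showed no detectable difference. tlr5a (ENSDARG00000044415) had 14.5, 25.5 and 36.1 CPM (lowest, median and highest) in Fsh libraries and 19.4, 21.6 and 31.6 CPM in Trilostane libraries, with overlapping groups. Its log2 fold change was 0.12 ± 0.20 (edgeR, adjusted p = 0.805; interval −0.32 to 0.56). tlr5b (ENSDARG00000052322) had 22.9, 28.1 and 36.0 CPM in Fsh libraries and 16.9, 19.3 and 45.9 CPM in Trilostane libraries. Here too the groups overlapped, Trilostane library 3 holding the highest level and library 1 the lowest. The log2 fold change was 0.18 ± 0.24 (edgeR, adjusted p = 0.745; interval −0.33 to 0.69). When 1 library was left out it ran between 0.083 and 0.45, with adjusted p of 0.227 or more in edgeR. No source used here says how reads shared by the copies were counted.

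The receptors of unmethylated CpG DNA, tlr9 and tlr21, were near the detection limit. tlr9 (ENSDARG00000044490) had 0.201, 1.07 and 3.49 CPM (lowest, median and highest; 2 to 35 reads) in Fsh libraries and 0.855, 1.30 and 1.66 CPM (4 to 19 reads) in Trilostane libraries. The Fsh libraries spanned the whole Trilostane range, with library 5 far above the rest, which lay between 0.201 and 1.12 CPM. tlr21 (ENSDARG00000058045) had 20 reads over the Fsh libraries (0.346 ± 0.207 CPM) and 28 over the Trilostane libraries (0.613 ± 0.374 CPM; SD, n = 6 each). Fitted without the low-count filter, the log2 fold changes were −0.06 ± 0.48 for tlr9 and −0.70 ± 0.48 for tlr21 (edgeR, adjusted p = 0.977 and 0.556). Of the 72 reads of tlr9 over the Fsh libraries, 35 were in library 5, and the mean without it was 0.818 CPM. With standard errors of 0.48 for both genes, a difference of modest size was not detectable.

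myd88 (listed as MYD88, ENSDARG00000010169), the adaptor that most of these receptors share, had 17.1, 19.0 and 25.0 CPM (lowest, median and highest) in Fsh libraries and 15.1, 22.3 and 24.6 CPM in Trilostane libraries. The ranges of the groups overlapped over most of their length. The log2 fold change was −0.09 ± 0.14 (edgeR, adjusted p = 0.784), and its interval of −0.40 to 0.21 is the narrowest among the 6 tested members. Thus 1 of the 6 tested members, tlr18 itself, was called lower and 0 higher, and for tlr18 the choice of members fixed that call. Of the 5 other members 0 were called by edgeR, DESeq2 or limma-voom, and 1 (tlr3) had an unadjusted p under 0.05 in edgeR, beside 17.4% of all genes.

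**Figure D2:**
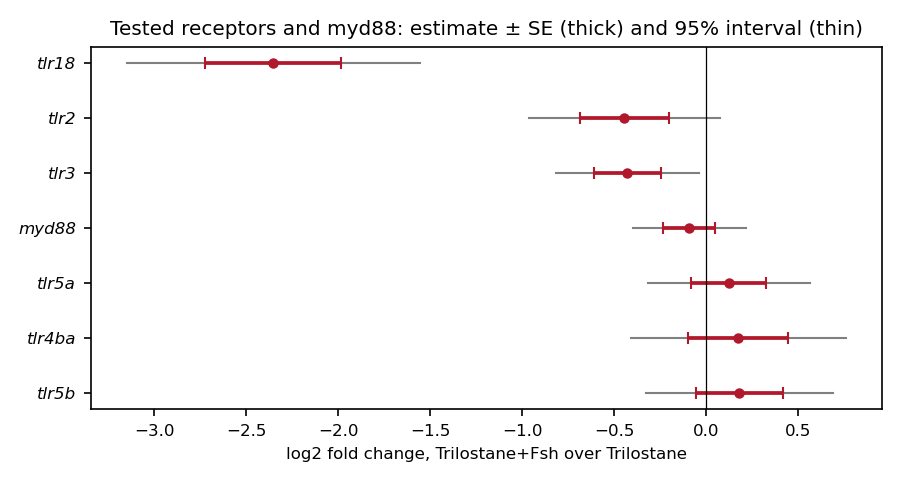
Log2 fold changes, Trilostane+Fsh over Trilostane, of the 6 tested members and tlr4ba, from the edgeR fit; points are estimates, thick bars the SE, thin lines 95% intervals, and the vertical line marks no difference. The interval of tlr18 runs from −3.15 to −1.56, while those of tlr2, tlr5a, tlr5b and myd88 include 0 and that of tlr3 ends at −0.04.

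Counted receptors of the family outside the member set numbered 9, and 1 passed the filter. This was tlr4ba, one of the zebrafish genes related to the mammalian lipopolysaccharide receptor, at 2.02 ± 0.635 CPM in Fsh libraries and 1.81 ± 0.522 CPM in Trilostane libraries (SD, n = 6 each; log2 fold change 0.17 ± 0.27; edgeR, adjusted p = 0.790). tlr7 (listed as TLR7), a sensor of single-stranded RNA, had 3.29 CPM in Fsh library 5 and 0.224 to 0.753 CPM in the other 5 Fsh libraries, against a mean of 0.693 ± 0.176 CPM in Trilostane libraries (SD, n = 6). The related tlr8b (named, like tlr7, after its values were seen) averaged 0.726 ± 0.413 CPM with Fsh and 1.13 ± 0.751 CPM without. The gene tlr20.4 had 0 reads in all 12 libraries, which allows up to 3 reads a library. Without the filter, adjusted p in edgeR for the others of these receptors ran between 0.589 and 0.987.

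Because blood cells carry many of these receptors, the members were set beside a list of 6 pan-leukocyte genes. ptprc (CD45, the phosphatase on all leukocytes) had 14.2, 21.2 and 98.0 CPM (lowest, median and highest) in Fsh libraries and 25.7, 42.8 and 77.7 CPM in Trilostane libraries. Its log2 fold change was −0.43 ± 0.45 (edgeR, adjusted p = 0.668) with all libraries and −1.14 ± 0.27 (adjusted p = 0.0376) without Fsh library 5. That library was set apart by the mean that includes ptprc, so the second value is no evidence of a fall. CORO1A, a leukocyte actin-binding protein, averaged 44.6 ± 15.2 CPM with Fsh and 49.4 ± 13.2 CPM without (SD, n = 6 each; −0.15 ± 0.22, adjusted p = 0.780; −0.34 ± 0.19 without Fsh library 5). None of the 6 was called in edgeR, DESeq2 or limma-voom, all 6 lay below 0 (median −0.38), 1 had an unadjusted p under 0.05, and their summed level was 103 to 371 CPM in Fsh libraries and 125 to 300 CPM in Trilostane libraries.

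The level of tlr18 in Fsh library 5, which was high in leukocyte genes, was 3.49 CPM, inside the range of the other Fsh libraries. Fsh library 5 was the highest of the Fsh libraries for the members tlr3, tlr5b, tlr9 and myd88 and for tlr7, tlr8b and tlr19.2, and the lowest for the member tlr5a and for tlr4bb and tlr4al. Without that library the log2 fold change of tlr18 was −2.32 ± 0.41, and with the leukocyte mean as a covariate it was −2.31 ± 0.45. Without the library tlr2 was at −0.48 ± 0.26, tlr5a at 0.25 ± 0.17, tlr5b at 0.095 ± 0.25 and myd88 at −0.17 ± 0.14, and none of these was called in edgeR. With the covariate tlr3 was at −0.27 ± 0.17, tlr2 at −0.41 ± 0.27 and tlr5b at 0.37 ± 0.24, while tlr5a turned to −0.12 ± 0.21 and myd88 to 0.055 ± 0.12. None of these 5 passed the threshold there in edgeR.

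Within each group of 6 libraries, the relation of each counted member to the leukocyte mean was computed, 16 relations in all, with exact permutation tests, two-sided. For tlr18, Pearson's r was −0.17 (exact permutation p = 0.819; rho −0.09, p = 0.919) among Fsh libraries and 0.35 (p = 0.511; rho 0.37, p = 0.497) among Trilostane libraries. Without the 2 libraries farthest from the median leukocyte mean, r was 0.29 and 0.94 in these groups. Among Fsh libraries, r was 0.83 for tlr3 (exact permutation p = 0.0111; rho 0.94, p = 0.0167; 0.71 without the 2 libraries) and 0.90 for tlr9 (p = 0.00833; rho 0.94, p = 0.0167; 0.91 without them). The value of 0.95 for myd88 (exact permutation p = 0.0333; rho 0.66, p = 0.175) rested on those libraries, at 0.01 without them. After Benjamini-Hochberg adjustment over the 16, none passed, the smallest adjusted p being 0.0889 for r and 0.133 for rho.

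**Figure D3:**
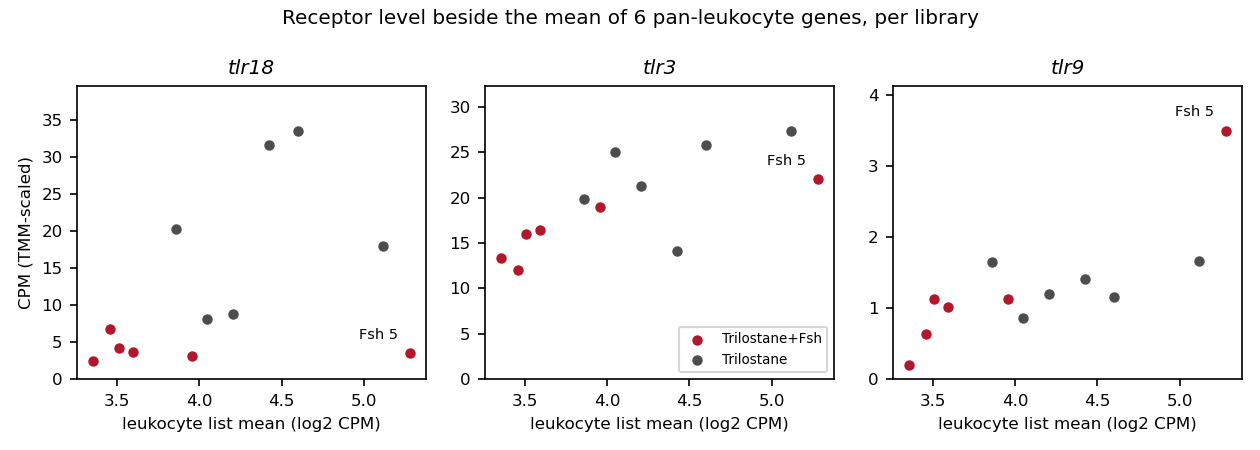
CPM of tlr18, tlr3 and tlr9 (linear axes) against the mean log2 CPM of 6 pan-leukocyte genes, 1 point a library, with Trilostane+Fsh in red and Trilostane in grey. Fsh library 5, farthest right at 5.28, is the highest Fsh library for tlr3 and tlr9 and is at 3.49 CPM for tlr18.

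Beyond the receptors, the pathway was read from lists of its parts, chosen by role. Receptor and pathway lists together held 98 IDs in the count table, of which 80 were tested, 0 were called higher and 6 lower, where 0.766% of all genes were called lower. Of the 6, ccl34b.4, ccl34a.4 and ifng1 were listed with their falls already known, so the 6 cannot be read against that share. Without them 3 of 77 were called lower, and the median log2 fold change was −0.29 (−0.32 with them), beside 0.00 over all tested genes. All the lists were chosen with earlier results of these data known, so the 77 too only describe and are no fair sample to set against all genes. The count of 6 depended on single libraries: it was 1 without Fsh library 2, 15 without Fsh library 5, and 10 lower with 1 higher without Trilostane library 6, while edgeR called 95, 758 and 700 genes in all under these settings. With the leukocyte mean as a covariate it was 4.

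Parts between receptor and nucleus gave no call in edgeR. The listed genes irak4, tbk1 and ticam1 were among those not matched to an ID in the count table. The listed adaptor TIRAP was counted but fell under the low-count filter, at 26 reads over the Fsh libraries and 39 over the Trilostane libraries. Of 3 tested TIR adaptors outside the members, 0 passed in edgeR or limma-voom, 1 in DESeq2, and 1 had an unadjusted p under 0.05 in edgeR. That was trafd1, an inhibitor of the pathway that was listed with the adaptors, at 82.9 ± 11.8 CPM with Fsh and 110 ± 10.1 CPM without (log2 fold change −0.41 ± 0.10, adjusted p = 0.0641). Of 13 relay genes of the Irak and Traf6 step, 0 passed in edgeR, DESeq2 or limma-voom, 3 had an unadjusted p under 0.05, and the median was −0.12. Among them TRAF6 (named after its values were seen) was at −0.06 ± 0.12 and traf3, which links the receptors to interferon induction, at −0.37 ± 0.12 (edgeR, adjusted p = 0.848 and 0.133).

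The list of the IKK complex and TBK1 had 6 tested genes, tbk1 itself not among them. Their median was −0.15, with 0 called by any of the 3 tools and 3 at an unadjusted p under 0.05. The smallest p was that of map3k14a, the kinase of the alternative NF-kappa-B route (−0.45 ± 0.16; edgeR, adjusted p = 0.158). Of 6 genes for receptor folding, trafficking and co-receptors 0 were called by any of the tools and 1 had an unadjusted p under 0.05, and UNC93B1, which carries nucleic acid receptors to endosomes (named after its values were seen), was at −0.11 ± 0.11 (edgeR, adjusted p = 0.657). The alarmin gene hmgb1b of the same list averaged 229 ± 67.0 CPM with Fsh and 154 ± 32.5 CPM without (0.58 ± 0.20, adjusted p = 0.158). Of the TIR receptors of the interleukin 1 family 2 were tested, IL1RAPL1 and IL1RAPL2. Of these 0 were called by any tool or at an unadjusted p under 0.05, with IL1RAPL1 at 0.40 ± 0.27 (edgeR, adjusted p = 0.490). The listed receptor genes il1r1, il1rap and il18r1 were among those not matched to an ID in the count table.

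**Figure D4:**
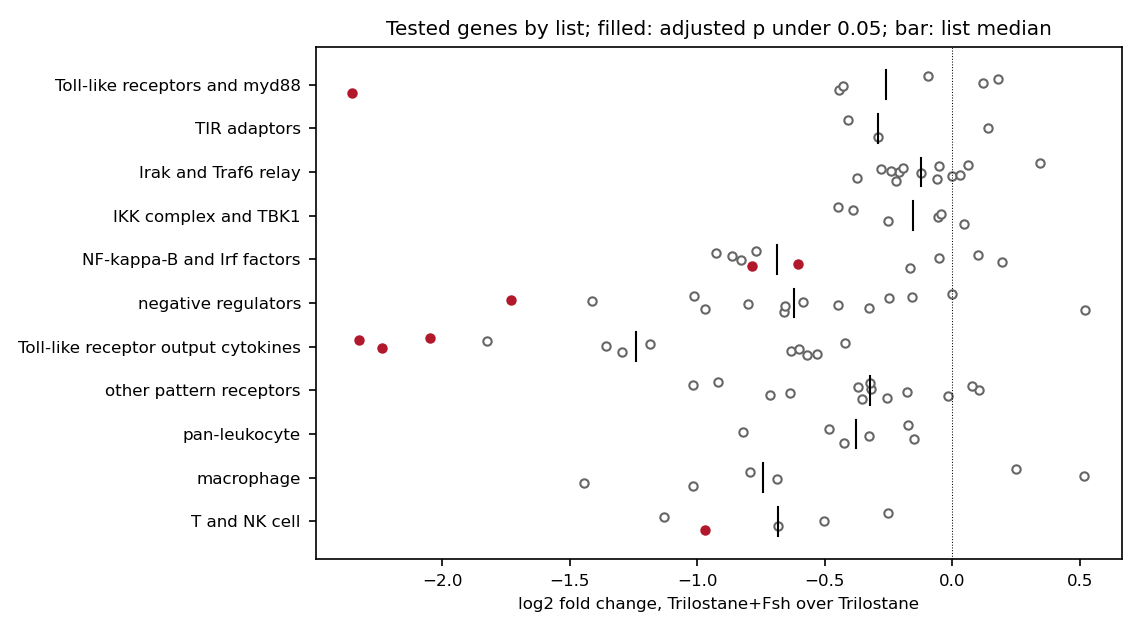
Log2 fold changes, Trilostane+Fsh over Trilostane, of the tested genes of the members, 7 pathway lists and 3 blood cell marker lists, 1 point a gene; filled points passed an adjusted p of 0.05 in edgeR and short bars are list medians. Medians are −0.12 for the Irak and Traf6 relay, −0.62 for the negative regulators, −0.69 for the NF-kappa-B and Irf factors and −1.24 for the output cytokines, or −0.63 without the 3 genes listed with their falls known. Pathway lists not drawn are receptor folding, trafficking and co-receptors (median −0.06), interleukin 1 family TIR receptors (0.21) and other Toll-like receptors (0.17, 1 tested). The neutrophil (−0.51), B cell (−0.27) and red blood cell (−0.17) marker lists are not drawn either.

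Negative regulators of the pathway lay lower with Fsh in 13 of 14 tested genes, with a median of −0.62, and 1 was called. socs1b, a suppressor of cytokine and Jak kinase signalling, had 8.85, 21.3 and 57.3 CPM (lowest, median and highest) in Fsh libraries and 74.5, 84.2 and 115 CPM in Trilostane libraries. The groups did not overlap, and the gene fell by 1.73 ± 0.39 on the log2 scale (edgeR, adjusted p = 0.0441). That call was lost in 9 of 12 fits without 1 library (adjusted p up to 0.104), in the robust fit (0.0543) and with the leukocyte covariate (0.0724). Its partner copy SOCS1 (ENSDARG00000038095, named after its values were seen) averaged 39.9 ± 26.0 CPM with Fsh and 107 ± 21.0 CPM without (−1.41 ± 0.34, adjusted p = 0.0553). TNFAIP3, the A20 deubiquitinase that shuts off NF-kappa-B signalling and also named after the fact, was at −0.97 ± 0.28 (adjusted p = 0.0926). DESeq2 called 6 genes of this list and limma-voom 2, and 10 had an unadjusted p under 0.05 in edgeR.

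Among the NF-kappa-B and Irf transcription factors 2 of 10 were called in edgeR, both lower and both of the alternative NF-kappa-B route. By DESeq2 4 of the 10 were called and by limma-voom 2, and 6 were at an unadjusted p under 0.05 in edgeR. relb, its activating subunit, had 160, 204 and 256 CPM (lowest, median and highest) in Fsh libraries and 316, 343 and 447 CPM in Trilostane libraries. nfkb2, its partner, had 129, 150 and 179 CPM in Fsh libraries and 185, 227 and 272 CPM in Trilostane libraries. For both genes the groups did not overlap. The falls were 0.79 ± 0.14 for relb and 0.61 ± 0.12 for nfkb2 on the log2 scale (edgeR, adjusted p = 0.0194 and 0.0314). relb missed the threshold without Fsh library 2 (adjusted p = 0.0526), and nfkb2 in 5 of 12 fits without 1 library (up to 0.0762). The classical subunit REL was at −0.17 ± 0.12 and IRF7, a driver of interferon genes, at −0.93 ± 0.30 (adjusted p = 0.508 and 0.126; both named after their values were seen). The listed subunit genes rela and nfkb1 were not matched to an ID in the count table, so a fall particular to the alternative route was not tested.

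Of the output cytokines and related products 12 were tested and 3 were called, ccl34b.4, ccl34a.4 and ifng1. These 3 were listed with their falls already known, so they give no independent evidence for the list. Of the other 9 tested genes 0 were called in edgeR or limma-voom and 1 in DESeq2, 4 had an unadjusted p under 0.05, all 9 lay below 0, and the median was −0.63 (−1.24 over all 12). The listed cytokine genes il1b, il6 and cxcl8a were among those not matched to an ID in the count table. The chemokine ccl34b.4 had 2.11, 4.98 and 7.59 CPM (lowest, median and highest) in Fsh libraries and 13.5, 16.1 and 35.3 CPM in Trilostane libraries. Its relative ccl34a.4 had 0.448, 0.716 and 1.29 CPM in Fsh libraries and 2.03, 3.26 and 10.2 CPM in Trilostane libraries. ifng1, one of the zebrafish interferon gamma genes, had 0.302, 1.44 and 4.74 CPM in Fsh libraries and 6.22, 8.49 and 12.0 CPM in Trilostane libraries. The groups did not overlap for any of the 3. In edgeR their log2 fold changes were −2.05 ± 0.33, −2.33 ± 0.43 and −2.24 ± 0.51, in that order. The call of ifng1 was lost in 9 of 12 fits without 1 library (adjusted p up to 0.108), without the low-count filter (0.0504) and with the leukocyte covariate (0.0803), and that of ccl34a.4 without Fsh library 2 or 6 (0.0537 and 0.0503). Of the list's genes not chosen this way, tnfa, a main product of receptor signalling in macrophages (named after its values were seen), averaged 5.31 ± 6.03 CPM with Fsh and 13.0 ± 13.8 CPM without (−1.30 ± 0.72, adjusted p = 0.384). Fsh library 5 stood at 17.6 CPM for tnfa and the other Fsh libraries at 2.21 to 3.89 CPM, and without it the log2 fold change was −2.21 ± 0.68 (adjusted p = 0.0867). With the listed IDs under the low-count filter included, DESeq2 called 5 of this list. Among those IDs, ifng1r (named after its values were seen) had 25 reads over the Fsh libraries and 168 over the Trilostane libraries, 75 of them in library 5. Fitted without the filter it was at −2.89 ± 0.71 (edgeR, adjusted p = 0.0669).

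Receptors of other pathogen-sensing families were 13 in number among the tested genes, with 0 called by edgeR, DESeq2 or limma-voom, 3 at an unadjusted p under 0.05 and a median of −0.32. IFIH1, the cytoplasmic sensor of long double-stranded RNA, averaged 44.4 ± 16.9 CPM with Fsh and 73.1 ± 19.0 CPM without (SD, n = 6 each; −0.72 ± 0.24; edgeR, adjusted p = 0.143).

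Markers of single blood cell types were read as lists beside the receptors. Of 6 tested macrophage markers 0 were called by any of the 3 tools and 3 had an unadjusted p under 0.05, with a median of −0.74 and summed levels of 239 to 779 CPM in Fsh libraries and 683 to 1058 CPM in Trilostane libraries. The single gene cd74a supplied most of that sum, at 178 to 648 CPM in Fsh libraries and 596 to 994 CPM in Trilostane libraries. ctss2.1, a cathepsin of antigen-presenting cells, was at −0.79 ± 0.26 (edgeR, adjusted p = 0.139), and at −1.04 ± 0.22 (adjusted p = 0.0268) without Fsh library 5. Library 5 stood apart in leukocyte and other genes, so values of these markers without it, here and below, only describe. The complement gene c1qb and the oxidase gene cybb of that list were at 0.52 ± 0.53 and 0.25 ± 0.34 (adjusted p = 0.663 and 0.753), and c1qc was at 0 in all libraries. Of 5 neutrophil markers 0 were called by any tool and 1 had an unadjusted p under 0.05 (median −0.51; 498 to 1937 CPM with Fsh and 785 to 2097 CPM without), with MMP9, a matrix protease that supplied most of the summed level, at −0.79 ± 0.29 (edgeR, adjusted p = 0.186). Without Fsh library 5 MMP9 was at −1.12 ± 0.22 (adjusted p = 0.0221), while the lysozyme gene lyz and nccrp1 were at 0.74 ± 0.98 and 0.12 ± 0.46 with all libraries (adjusted p = 0.747 and 0.928). Of 5 T and NK cell markers 1 was called in edgeR and 4 were not. The called gene, the helper cell co-receptor cd4-1, was listed with its fall known, so it gives no independent evidence for the list. It had 1.60 to 2.93 CPM in Fsh libraries and 3.07 to 4.81 CPM in Trilostane libraries (−0.97 ± 0.21, edgeR, adjusted p = 0.0371). That call was lost in 7 of 12 fits without 1 library (adjusted p up to 0.0920) and with library size as the sole scaling (0.0540), without the low-count filter (0.0596) and with the leukocyte covariate (0.0660). Summed levels of that list were 20.2 to 55.1 CPM with Fsh and 36.5 to 78.7 CPM without. With cd4-1 counted in, all 5 markers lay below 0 (median −0.68), 3 had an unadjusted p under 0.05 in edgeR, and DESeq2 called 2 and limma-voom 1. Of 4 B cell markers 0 were called by any tool or at an unadjusted p under 0.05 (median −0.27), and blnk, an adaptor of the B cell receptor, was at −0.40 ± 0.57 (edgeR, adjusted p = 0.766), or −1.38 ± 0.37 (adjusted p = 0.0561) without Fsh library 5. The part of these cells in the fall of tlr18 was not tested, as the covariate above is a pan-leukocyte mean that does not resolve single cell types.

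Testis cell markers were present, as the label requires. Of 7 tested Sertoli cell IDs 2 rose in edgeR, the inhibin gene inha and the growth factor gene gsdf (log2 fold changes 2.64 ± 0.54 and 2.72 ± 0.60), each a call lost in 8 of 12 fits without 1 library. With the leukocyte covariate neither passed (adjusted p = 0.0631 and 0.0989), and gsdf missed the threshold in the robust fit too (0.0614). Of 6 Leydig cell IDs 1 rose in edgeR, the peptide hormone gene insl3 (2.19 ± 0.37). In that list DESeq2 called 2 and limma-voom 1, and 4 had an unadjusted p under 0.05 (median 0.89, 2 below 0). In the Sertoli list DESeq2 called 3 and limma-voom 2, and 4 had an unadjusted p under 0.05 (median 0.48, 3 below 0). Of 6 germ cell, 3 endothelial and 2 red blood cell markers 0 were called by edgeR, DESeq2 or limma-voom, with 1, 0 and 0 at an unadjusted p under 0.05. The meiotic recombinase gene DMC1 was at 0.98 ± 0.32 (edgeR, adjusted p = 0.136). Without Fsh library 5, its lowest Fsh library, it was at 1.16 ± 0.26 (edgeR, adjusted p = 0.0345), a value that only describes. TIE1 was at 0.30 ± 0.35 (−0.16 ± 0.23 without that library) and SLC4A1 at −0.31 ± 0.51.

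The genes whose pattern over the 12 libraries was most like that of tlr18 were found by the mean absolute difference of log2 CPM, each gene centred on its own mean, among 13560 genes. The 5 nearest were GLIPR2 (mean difference 0.484), THBS3 (0.493), TRPC6 (0.507), CDC42EP3 (0.507) and SCNM1 (0.562). THBS3 encodes a thrombospondin of the extracellular matrix, TRPC6 a cation channel, CDC42EP3 an effector of the Cdc42 GTPase and SCNM1 a splicing factor. All 5 averaged lower with Fsh, which the choice by likeness brings about. GLIPR2 averaged 38.8 ± 15.7 CPM with Fsh and 95.1 ± 25.4 CPM without (SD, n = 6 each), a log2 fold change of −1.29 ± 0.27, and CDC42EP3 had −1.67 ± 0.31. A mean difference near 0.5 means that even the nearest genes departed from tlr18 by about that much a library on the log2 scale.

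**Figure D5:**
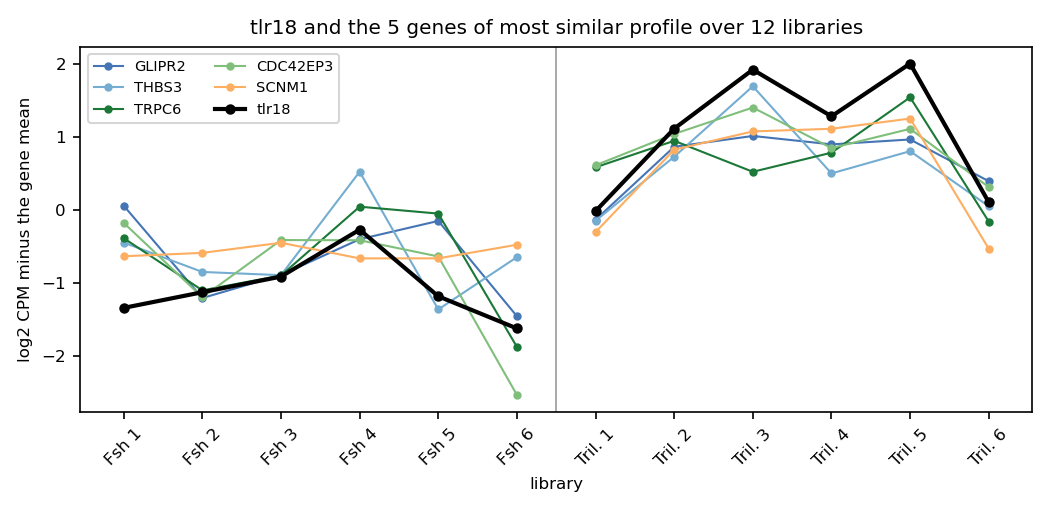
Log2 CPM centred on each gene's mean for tlr18 (black) and the 5 genes nearest to it, in Trilostane+Fsh libraries 1 to 6 (left) and Trilostane libraries 1 to 6 (right); lines join the points of 1 gene within a group to guide the eye and carry no order. Mean absolute differences from tlr18 run between 0.484 for GLIPR2 and 0.562 for SCNM1.

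None of the tested genes beside tlr18 on the chromosome was called. In the RefSeq annotation of assembly GRCz12tu, a later build than the Zv9 to which the submitters' processing notes assign the counts, the 8 nearest protein-coding genes are bcan, isg20l2, mettl25b and s100a1 on one side and si:ch211-113g11.6, lingo4b, ctsk and ctss2.1 on the other. Of these 6 had an ID in the count table and 5 were tested, with 0 called in edgeR, DESeq2 or limma-voom and 3 at an unadjusted p under 0.05 in edgeR, beside 17.4% of all genes. The log2 fold changes were −0.15 ± 0.24 for s100a1, 0.33 ± 0.16 for si:ch211-113g11.6, 0.79 ± 0.26 for lingo4b, 0.64 ± 0.21 for ctsk and −0.79 ± 0.26 for ctss2.1. Both directions thus occurred among these 5. mettl25b, under the low-count filter, had 0 reads over the Fsh libraries and 13 over the Trilostane libraries, 7 of them in library 4.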

How the data were processed

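Total RNA of testis tissue was made into TruSeq RNA v2 libraries, per the labels' protocols. The deposited values are read counts per gene ID, 1 file a library. The submitters' processing notes name CASAVA 1.8, STAR 2.3, HTSeq and build Zv9. The sources used here name no annotation release, strand setting or treatment of reads that match several copies, so near-identical copies are uncertain. No column of another sample was found.

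From these counts, edgeR 4.0.16 (R 4.3.3) compared 6 Trilostane+Fsh with 6 Trilostane libraries: trimmed-mean scaling, filterByExpr by group, the quasi-likelihood F test, and Benjamini-Hochberg adjustment over 19317 genes, called at adjusted p under 0.05. Standard errors are the log2 fold change over the root of F, and 95% intervals use the fit's degrees of freedom. DESeq2 1.42.0, limma-voom 3.58.1, other scalings and filters, a leukocyte covariate, a replicate block and leaving out each library were alternatives. The code was tested on simulated data. Replicate libraries differed beyond counting noise (chi-square per degree of freedom 5.40 to 43.0), so none was a duplicate. Library totals ran between 4695095 and 11497588 reads.

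The members and gene lists were chosen with earlier results of these data known. Symbols came from a table of gene names that paired 21939 of the 33737 IDs, and 147 of 209 list entries had an ID. Text names all members, up to 3 called genes a list (or the one with the smallest p), the 5 genes most like tlr18, ptprc and CORO1A. Other genes with a fold change are markers or neighbours, or are marked as named after their values were seen.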

Additional observations from a re-analysis of the deposited data

Results flagged for a closer look

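In 12 of 92 groups of 6 libraries examined, 1 library stood beyond Dixon's 95% critical gap. The rate of 1 in 20 by chance holds for independent, normally distributed values. The values here are CPM of genes that often shared the outlying library, so the 12 are not read against that rate. Fsh library 5 was the one standing high in 8 of the 12. For receptors these were tlr9 (3.49 CPM, against 0.201 to 1.12 CPM in the other Fsh libraries) and tlr7 (listed as TLR7; 3.29 CPM, against 0.224 to 0.753 CPM). For the markers examined they were ptprc (98.0 CPM, against 14.2 to 27.7 CPM), LCP1 (6.19 CPM), ctss2.1 (52.4 CPM), MMP9 (1583 CPM), blnk (22.6 CPM, against 2.01 to 4.40 CPM) and TIE1 (54.9 CPM). Not all listed genes were examined this way. SPI1 and itgb2, outside the 92 groups, were also highest in Fsh library 5, at 41.9 and 140 CPM. The other Fsh libraries had 10.9 to 14.1 CPM of SPI1 and 26.8 to 54.2 CPM of itgb2. In the Trilostane group, library 5 was high for ccl34a.4 (10.2 CPM, against 2.03 to 4.91 CPM) and library 2 for TLR7 (1.05 CPM, against 0.586 to 0.644 CPM). THBS3, one of the genes nearest to tlr18 in pattern, was high in Fsh library 4 (12.0 CPM) and in Trilostane library 3 (27.4 CPM). tlr18 itself had no such library in either group.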

How the results depend on the processing

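tlr18 kept its direction in every alternative run, at a log2 fold change between −2.58 and −2.16 when 1 library was left out and between −2.36 and −2.22 in the others. The count of called members was 1 in each, tlr18 itself. These runs reuse the values for which tlr18 was chosen, so they describe its fall and give no independent support. The count over all genes, 315, was 1090 with DESeq2 and ran between 95 (without Fsh library 2) and 758 (without Fsh library 5) when 1 library was left out. The count of list genes, 10, was 5 with the leukocyte covariate, 23 with DESeq2 and between 2 and 26 when 1 library was left out. Directions reversed with the leukocyte covariate for tlr5a (−0.12), MYD88 (0.055), tlr4ba (−0.00018), blnk (0.070) and CORO1A (0.13), and for TIE1 without Fsh library 5 (leaving out 1 library gave −0.16 to 0.46), none of them called in either fit. The cause was not tested. Same-numbered libraries of the groups correlated in their deviations at 0.02 to 0.26, and 2 of 6 Fsh libraries correlated best with their own number. These values cannot decide whether equal numbers pair the samples. The main fit is therefore unpaired by choice, and a fit with a replicate block is given beside it. With a replicate block edgeR called 381 genes, 15 of them list genes, and tlr18 was at −2.22. The block ended the calls of nfkb2, cd4-1 and SCNM1 (adjusted p = 0.0525, 0.0627 and 0.0666) and brought MMP9, ctss2.1, IFIH1 and TRPC6 past the threshold (0.0199, 0.0277, 0.0202 and 0.0143). Leaving the 3 output genes with known falls out of the lists was chosen after seeing the data. For tlr9 and tlr21, at 72 and 20 reads over the Fsh libraries, standard errors of 0.48 limit what can be seen.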
